A study of Mus musculus with 2 samples.

Results

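The nuclei described here were leukocyte nuclei of ischaemic muscle, taken as macrophages, with high counts of Gpnmb, Atp6v0d2 and Alcam, 4444 of the 23616 barcodes of the study within the limits on depth and mitochondrial RNA. A barcode is the tag shared by all RNA captured in 1 droplet, and a unique molecular identifier (UMI) marks 1 captured RNA molecule. A barcode was a member if it had at least 2000 UMIs, at most 5% of them from mitochondrial genes, and at least 4 UMIs of the leukocyte genes Ptprc, Dock2, Arhgap15, Myo1f and Ly86. It also needed at least 3 UMIs of Gpnmb, Atp6v0d2 and Alcam together, and no fewer than of Mrc1, F13a1 and Cd163 together. Cycling nuclei (over 2 UMIs of Top2a, Mki67, Kif11, Knl1 and Kif15) were left out, as were nuclei with over 1 UMI of Pax7 and Pdgfra or with 1% or more of UMIs from the fibre genes Ttn, Neb, Trdn and Dmd. The members were thus chosen by the UMI counts of these genes in the same nuclei. They are called the Gpnmb set below, and every count of a rule gene describes how the set was chosen.

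The femoral artery had been ligated 5 days earlier, and nuclei were isolated from the tibialis anterior, the shin muscle that lifts the foot. The mice were male, 16 to 20 weeks old, and had chronic kidney disease. There was 1 library labelled AHRfl/fl and 1 labelled AHRmKO. The strain label was the same for both and named 2 alleles: AHRtm3.1Bra/J, which is the floxed Ahr gene, and the transgene Tg(ACTA1-cre/Esr1*)2Kesr/J, a Cre recombinase fused to an oestrogen receptor domain and driven by the promoter of skeletal muscle actin. That Cre acts in muscle fibres, so Ahr in macrophages does not check a label. Whether and when its inducer was given, and how many animals each library held, are not given in the sources used here. With 1 library per group no difference between genotypes could be tested, and each interval below is a 95% interval of counting error only.

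GPNMB is a membrane glycoprotein of late endosomes and lysosomes that macrophages make when they are loaded with lipid or cell debris. Atp6v0d2 encodes a subunit of the proton pump that acidifies lysosomes and is best known from osteoclasts, and ALCAM (CD166) is an adhesion molecule of the cell surface. In injured muscle, macrophages that have engulfed dead fibres process large loads of lipid and protein in lysosomes, and transcription factors of the MiT/TFE family (Mitf, Tfeb, Tfe3, Tfec) drive lysosomal genes by binding E-box motifs. The Mrc1 set used for comparison is the mirror image of the members: at least 3 UMIs of Mrc1, F13a1 and Cd163 and more than of the Gpnmb genes, with the same other limits. Mrc1 (CD206), F13a1 and Cd163 are genes of macrophages often described as tissue resident.

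The library labelled AHRfl/fl held 3575 members, 21.05% (20.4 to 21.7) of its 16986 barcodes within the limits and 51.03% (49.8 to 52.2) of its 7006 leukocyte nuclei. The library labelled AHRmKO held 869, 13.1% (12.3 to 13.9) of 6630 barcodes and 42.5% (40.3 to 44.6) of 2047 leukocyte nuclei. The Mrc1 set held 1639 and 299 nuclei, leukocytes with under 3 UMIs of either gene group 846 and 319, and cycling leukocytes 946 and 560. A lower share cannot be told apart from a change of other nuclei, from nuclei lost in isolation or from the difference between 2 libraries. No member barcode occurred in both libraries, although 30 barcodes within the limits did.

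Members had a median of 2976 UMIs and 1829 genes in the library labelled AHRfl/fl and of 3536 UMIs and 1939 genes in the other. Their median mitochondrial share was 0.893% and 2.06%, and their median share of fibre genes 0.182% and 0.0772%. Free RNA, taken from barcodes with 200 to under 500 UMIs, and scaled by fibre genes, came to 17.2% and 11.2% of the members' UMIs, and 17.1% and 13.2% of those of the Mrc1 set. Of the members, 95 (2.66%) and 4 (0.46%) were among the highest doublet scores of their library. The cut for these scores differed between libraries. It took 1154 (6.79%) of the AHRfl/fl barcodes within the limits and 176 (2.65%) of the AHRmKO ones. Values for genes of other cells are given with the clusters below.

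Of the general macrophage genes drawn for a check, Mertk, Adgre1 and Csf1r are given here, and they were present in both libraries. The check genes were chosen after their values had been seen. Cd68, Itgam and Lyz2 were drawn for the same check, and their values are not reported here. Mertk, a receptor for dead cells, was at 1678 counts per 1000000 UMIs of the summed set (CPM) in AHRfl/fl members and 1893 CPM in AHRmKO members. Adgre1, which encodes F4/80, was at 527 and 704 CPM, and Csf1r, the receptor for macrophage colony-stimulating factor, at 405 and 395 CPM. In endothelial nuclei, defined by their own genes with at most 1 leukocyte UMI, Mertk was at 143 and 189 CPM, Adgre1 at 37.03 and 10.4 CPM and Csf1r at 50.5 and 10.4 CPM. In the barcodes taken as free RNA Mertk was at 242 and 375 CPM, Adgre1 at 216 and 122 CPM and Csf1r at 315 and 94.4 CPM. All 3 were higher in members than in either, Csf1r in AHRfl/fl by little over free RNA, and the summed levels do not show that each member was a macrophage. The working name for the set, lipid-handling macrophages, was not taken over. Of the lipid genes described below, Pparg and the sparse Olr1 were 2-fold higher than in the Mrc1 set in both libraries, while Cd36, Lipa, Plin2, Lpl, Trem2, Apoe and Abca1 were less than 2-fold apart in both libraries, so the set is named here by Gpnmb alone.

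Gpnmb itself carried the membership. It had a UMI in 97.1% of AHRfl/fl members and 95.9% of AHRmKO members, and 84.3% and 82.4% had 3 or more UMIs of Gpnmb alone. Alcam had a UMI in 73.0% and 73.3%, and Atp6v0d2 in 20.6% and 15.9%. All 3 genes were found together in 16.5% and 11.9% of members, and 103 and 36 members had no UMI of Gpnmb.

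The members were not free of the opposing genes. No UMI of Mrc1, F13a1 or Cd163 was found in 38.1% and 38.6% of members. The median sum of the Gpnmb genes was 9 UMIs in both libraries. Just inside the limit, 311 and 79 members had a sum of exactly 3, and 95 and 26 had equal sums of both gene groups. Just outside it, 331 and 109 non-cycling leukocytes had a sum of 2 that the Mrc1 genes did not exceed. Another 684 and 113 had a sum of 3 or more that the Mrc1 genes exceeded.

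Gpnmb was at 2385 and 2122 CPM in members and at 601 and 429.6 CPM in the Mrc1 set. In the barcodes taken as free RNA it was at 1275 and 283 CPM, so its level in free RNA differed between the libraries. Alcam was at 1236 and 935 CPM in members and 336 and 311 CPM in the Mrc1 set. Atp6v0d2 was at 191 and 193 CPM against 30.01 and 23.8 CPM. These differences follow from the rule.

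A pair of promoter sequences is shown because Gpnmb carries the membership and Mmp12 ranked first among genes outside the rule in the ratio of members to the Mrc1 set. Both are the 250 bases before a RefSeq start on build GRCm38.p6, plus strand, 5′ to 3′. Capitals in the second mark a match, on the opposite strand, to each of 2 motifs searched on both strands. The first is CATGTG, which like the palindrome CACGTG is an E-box that factors of the MiT/TFE family bind. The match nearer the start is to TGACTCA, the site of AP-1 factors such as Fos, and that motif was added after the data had been seen. Gpnmb lies at chr6:49036546-49070929 and Mmp12 at chr9:7344381-7369499 (GENCODE M21, mm10).
Gpnmb, chr6:49036268-49036517: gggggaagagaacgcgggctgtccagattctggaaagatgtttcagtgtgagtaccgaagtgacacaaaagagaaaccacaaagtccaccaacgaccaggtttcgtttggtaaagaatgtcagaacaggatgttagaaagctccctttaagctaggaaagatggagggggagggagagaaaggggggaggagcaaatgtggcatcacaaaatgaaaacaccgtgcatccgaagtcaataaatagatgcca
Mmp12, second start, chr9:7347124-7347373: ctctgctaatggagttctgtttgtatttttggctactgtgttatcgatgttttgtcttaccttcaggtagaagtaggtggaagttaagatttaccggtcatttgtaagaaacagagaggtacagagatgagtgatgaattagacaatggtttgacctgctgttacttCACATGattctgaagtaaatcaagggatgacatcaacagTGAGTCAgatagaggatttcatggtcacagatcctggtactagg

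The Gpnmb window held none of the 3 motifs, and the window of the other Mmp12 start held none either. CACGTG was found in 6.86% of the 27025 genes with a promoter in the table, in 10 of 26 matched lysosomal genes, in 2 of 12 matched subunits of the vacuolar ATPase, and in none of the 11 matched genes among the 15 named below as higher in members. CATGTG was found in 13.8% of all genes, in 5 of the 26 lysosomal genes and in 1 of those 11, Mmp12. TGACTCA was found in 5.16% of all genes, in 3 of the 26 lysosomal genes, in none of the 12 pump subunits and in 1 of those 11, Mmp12. Of 12 matched lipid-associated macrophage genes 2 had it, Itgax and Mmp12. A match describes letters in a short window and not a bound site. Atp6v0d2 was not in the table.

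Members were set beside the Mrc1 set in each library, which describes the rule's own contrast and was not tested. A gene was counted as apart at 2-fold or more, with 0.5 CPM added on both sides and at least 30 UMIs over both sets. In the library labelled AHRfl/fl 275 of 14237 genes were 2-fold higher in members (1.93%) and 166 lower (1.17%). In the one labelled AHRmKO 265 of 10094 were higher (2.63%) and 190 lower (1.88%). In both libraries 80 of 10087 genes were higher (0.793%), which is 29.1% and 30.2% of each library's own list, and 53 were lower (0.525%), which is 31.9% and 27.9%. The own lists were drawn from 14237 and 10094 genes, not all of them counted in both libraries, so these shares are not rates of agreement. The plot of ratios by library shows these genes against the rest.

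**Figure D1:**
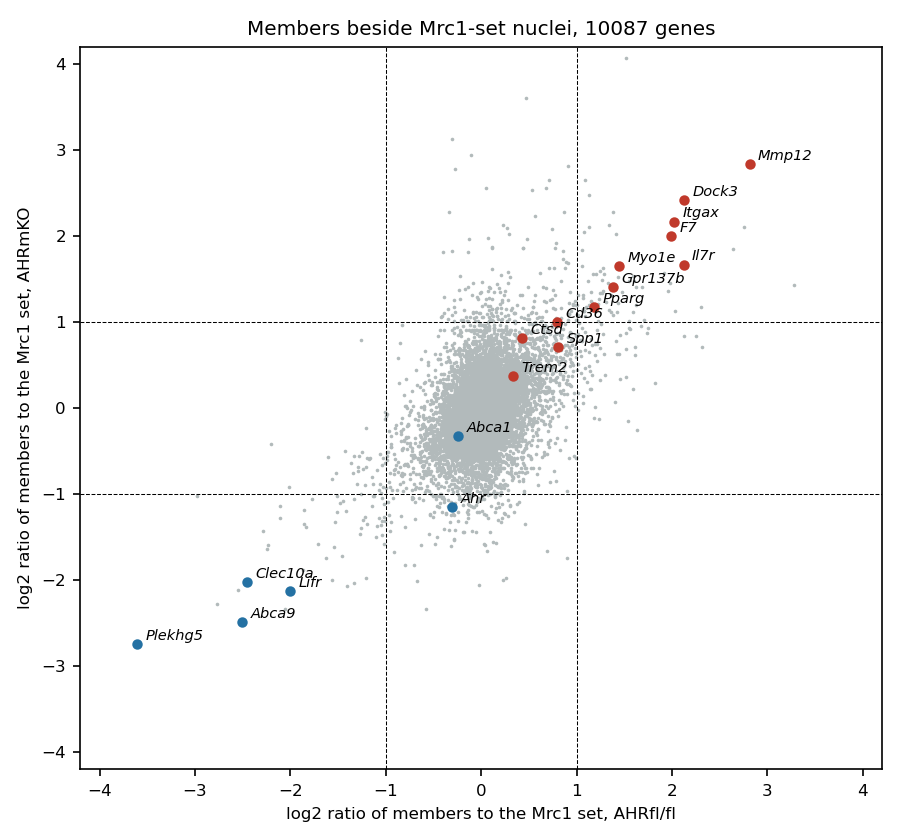
Log2 ratio of members to the Mrc1 set for 10087 genes, with the library labelled AHRfl/fl on the x axis and the one labelled AHRmKO on the y axis, 1 point per gene; dashed lines mark 2-fold and 4 genes lie outside the axes. The 80 genes past 2-fold in both libraries lie in the upper right and the 53 in the lower left, with Mmp12 and Plekhg5 far from the bulk of genes near 0.

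Mmp12, macrophage elastase, was among the genes farthest apart. It stood at 59.3 CPM (55.1 to 63.7) in AHRfl/fl members and 59.6 CPM (52.3 to 67.6) in AHRmKO members, against 8.002 and 7.93 CPM in the Mrc1 set. The log2 ratio was 2.81 (2.47 to 3.34) and 2.83 (2.01 to 3.99). It was not a gene of all members: its 753 UMIs came from 208 of 3575 nuclei in the library labelled AHRfl/fl. In the other, all 242 UMIs came from 12 of 869 nuclei, 88 of them from a single nucleus. Without that nucleus the level was 37.9 CPM and the log2 ratio 2.19. In the barcodes taken as free RNA Mmp12 was at 45.4 and 2.87 CPM.

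Members can be divided by Alcam, 1 of the 3 genes of the rule, so what follows describes the rule's own values. In the 966 and 232 members without an Alcam UMI, Mmp12 was at 9.79 and 1.14 CPM, and the AHRmKO value rests on where 12 nuclei fall. Of the 15 genes with the highest ratios, 8 stayed 2-fold higher than the Mrc1 set in both libraries among members without an Alcam UMI: Htr2b, Tent5c, F7, Myo1e, Dock3, Cd300lf, Gpr137b and Olfr111. Mamdc2 and Chst11 were then near the Mrc1 set, at 23.5 and 20.6 CPM against 23.8 and 19.02 CPM for Mamdc2 and at 35.2 and 34.3 CPM against 30.01 and 26.2 CPM for Chst11. Il7r was at 67.8 and 128 CPM, with log2 ratios of 0.77 and 0.73, and Cd109 at 0.44 and 0.92. Dach1 was at 25.4 and 22.9 CPM against 29.01 and 4.76 CPM, below the Mrc1 set only in AHRfl/fl nuclei. Adra1a fell just short in the library labelled AHRmKO, at a log2 ratio of 0.98. Nuclei without an Alcam UMI had median depths of 2794 and 3199 UMIs, and this division was made after the values had been seen.

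Dock3, an activator of the GTPase Rac, was at 52.7 CPM (48.8 to 56.9) and 82.96 CPM (74.3 to 92.3) against 11.7 and 15.1 CPM, a log2 ratio of 2.13 and 2.42. F7, coagulation factor VII, was at 33.3 and 74.6 CPM against 8.002 and 18.2 CPM. Il7r, the interleukin 7 receptor, was at 174 CPM (167 to 181) and 245 CPM (230.4 to 261) against 39.5 and 76.9 CPM, a log2 ratio of 2.12 (1.94 to 2.34) and 1.67 (1.37 to 1.99). Il7r is best known from lymphocytes. Over the members the 12 genes of the lymphocyte list, which does not hold Il7r, summed to 205 and 73.1 CPM, of which Ebf1 made up 182 and 68.4 CPM. None of the 12 was at 0 in AHRfl/fl members, and Cd3e, Cd3g, Themis and Pax5 were at 0 in AHRmKO members. The list summed to 221 and 95.9 CPM in the Mrc1 set and to 189.5 and 392.4 CPM in low barcodes. In endothelial nuclei it summed to 2548 and 2510 CPM, so it does not measure lymphocytes alone. The part of lymphocyte RNA in the Il7r level was not tested.

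Olfr111, which encodes a receptor of the olfactory family, stood at 53.8 and 43.3 CPM against 13.8 and 14.3 CPM. Tent5c, a poly(A) polymerase of secretory cells, stood at 34.8 and 40.6 CPM against 11.2 and 14.3 CPM. Gpr137b, a membrane protein of lysosomes, stood at 242 and 311 CPM against 92.5 and 117 CPM. Each was over 2-fold higher in members in both libraries, with Gpr137b at 1.38 and 1.403 on the log2 scale.

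Myo1e, an unconventional myosin of membrane ruffles and phagocytic cups, was the most abundant gene among the 15 highest, at 705 and 1069 CPM against 259 and 340.1 CPM. Endothelial nuclei stood at 507 and 433 CPM for it, and the barcodes taken as free RNA at 127 and 335 CPM. Scaled by fibre genes, free RNA came to 25.6% and 68.1% of the UMIs of endothelial nuclei, a set with no limit on fibre genes. The median fibre share of these nuclei was 0.214% and 0.0966%, beside 0.182% and 0.0772% in members. Their summed fibre list was at 8872.5 and 9321 CPM, beside 3627 and 1001 CPM in members. A summed estimate that counts all fibre RNA as free need not describe most of these nuclei. The part of free RNA in endothelial levels was not tested. Dach1, a transcriptional repressor, was at 78.2 and 20.9 CPM in members but at 904 and 483 CPM in endothelial nuclei. The other genes of the 15 were Chst11, Cd300lf, Mamdc2, Adra1a, Cd109 and Htr2b, with log2 ratios between 1.27 for Cd109 in the library labelled AHRfl/fl and 1.95 for Chst11 in the same library. Htr2b, the serotonin receptor 2B, shares its locus with the more abundant Psmd1 on the opposite strand, and without knowledge of strand use in counting its 118 and 111 CPM cannot be assigned to it with certainty.

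**Figure D2:**
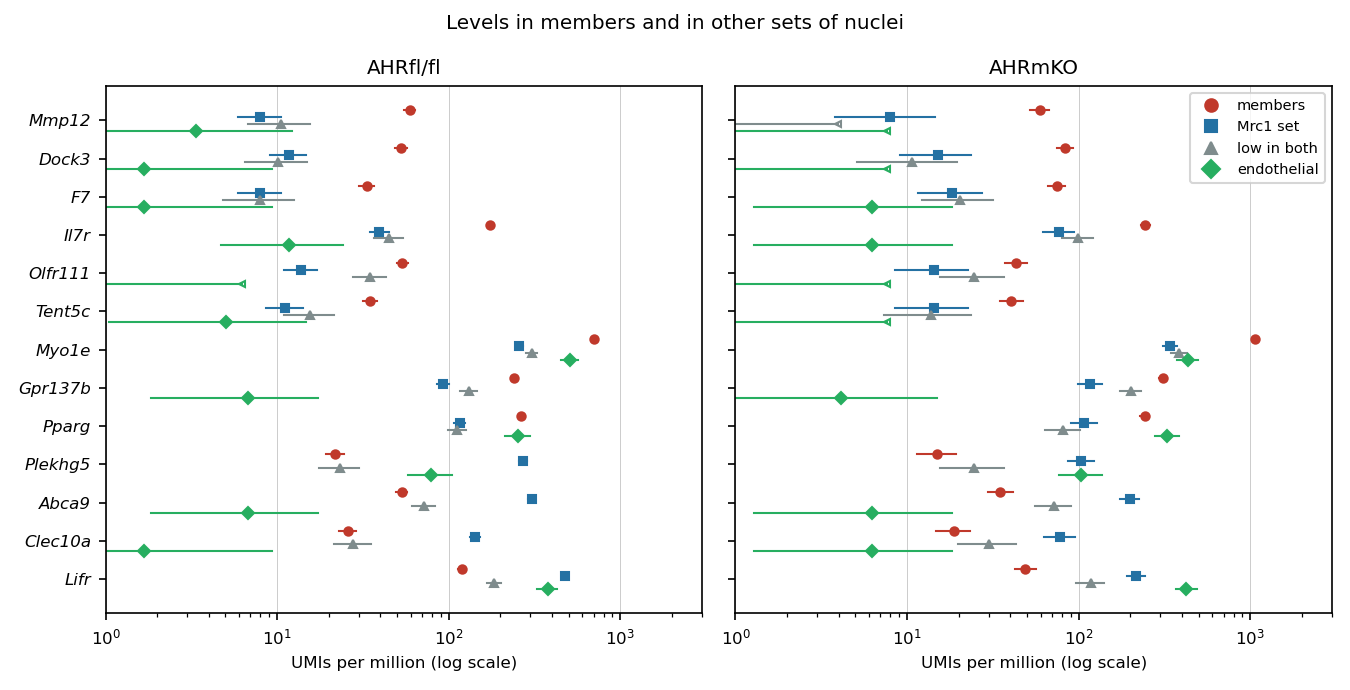
Level in CPM on a log axis of 13 genes in members, the Mrc1 set, leukocytes low in both gene groups and endothelial nuclei of each library; bars are 95% Poisson intervals and open left-pointing markers are upper limits where no UMI was counted. The 9 genes from Mmp12 to Pparg are higher in members than in the Mrc1 set, and the 4 from Plekhg5 to Lifr are lower.

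The genes lower in members than in the Mrc1 set were led by Plekhg5, an exchange factor for RhoA also linked to autophagy. It stood at 21.9 CPM (19.4 to 24.6) and 15.02 CPM (11.5 to 19.3) in members and 272 and 104 CPM in the Mrc1 set, a log2 ratio of -3.604 and -2.75. Leukocytes low in both gene groups stood at 23.2 and 24.5 CPM, close to the members. The Mrc1 set was thus the high one, and for Abca9 and Clec10a the low group also lay nearer the members. Abca9, a transporter of the ABCA family, was at 53.4 and 34.96 CPM in members, 306 and 199 CPM in the Mrc1 set and 71.6 and 71.5 CPM in the low group. Clec10a, a lectin of resident macrophages and dendritic cells, was at 25.8 and 18.7 CPM against 143 and 77.7 CPM, with 27.8 and 29.9 CPM in the low group.

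Lifr, the receptor for leukaemia inhibitory factor, was at 119.6 and 48.99 CPM in members against 479.6 and 216 CPM. It was lower in members in each library, with an AHRmKO log2 ratio of -2.13. Abca6, Selenbp1, Nrg2, Rasgrp4 and Dnm1 were also among the 10 lowest, with log2 ratios between -2.34 for Abca6 in the library labelled AHRmKO and -1.46 for Rasgrp4 in the one labelled AHRfl/fl. Dnm1 overlaps the more abundant Ciz1 on the opposite strand.

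To compare shares of nuclei at equal depth, each nucleus was thinned to 2000 UMIs. The share of nuclei with a UMI separated the sets most for Myo1e, Arhgap24, Nav2, Xylt1 and Gpr137b. Xylt1, which starts the sugar chains of proteoglycans, had a UMI in 59.4% of AHRfl/fl members and 27.1% of the Mrc1 set, and in 59.8% and 36.5% in the other library. Arhgap24, a Rac-inactivating protein, had 66.5% against 34.2% and 71.5% against 44.8%. Gpr137b had 36.7% against 14.8% and 41.4% against 19.4%. Endothelial nuclei, which had median depths of 3300 and 4745 UMIs, gave 1.32% and 1.23% for Gpr137b, and 11.3% and 9.88% for Xylt1.

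Myo1e and Nav2 gave a different picture in endothelium. Myo1e had a UMI in 55.4% and 65.6% of members and 50.99% and 55.6% of endothelial nuclei, and Nav2, a protein of neurite guidance, in 46.3% and 61.1% against 31.8% and 45.7%. In the barcodes taken as free RNA Nav2 was at 141 and 429 CPM, and the part of free RNA in the endothelial shares was not tested. Before thinning the shares in members were 65.2% and 76.1% for Myo1e, 57.2% and 73.8% for Nav2, 70.9% and 74.9% for Xylt1, 74.7% and 81.7% for Arhgap24, and 49.7% and 59.8% for Gpr137b.

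The limit of 3 UMIs cuts a range. Thinned leukocytes with at most 2 UMIs of the Mrc1 genes were therefore divided by their summed Gpnmb, Atp6v0d2 and Alcam UMIs into 0, 1 to 2, 3 to 5, 6 to 9, and 10 or more. The groups held 399, 1002, 1069, 794 and 819 nuclei in the library labelled AHRfl/fl and 193, 314, 297, 219 and 120 in the other. They were made from the rule's own counts, and most genes shown were chosen by their ratio to the Mrc1 set. A rise or fall along the groups is thus partly built in and describes the rule. Il7r stood at 43.9, 50.4, 84.2, 156 and 394 CPM over these groups in AHRfl/fl nuclei, and at 148, 85.99, 155, 331 and 529 CPM in AHRmKO nuclei. It was highest at the top of the range in both. The group of 3 to 5 was above both lower groups in the library labelled AHRfl/fl. In AHRmKO nuclei it was level with the group of 0 within the counting intervals (125 to 190 against 112 to 191 CPM), and the group of 1 to 2 was the lowest.

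For the next genes only the end groups are given. From the lowest to the highest group, Myo1e went from 343 to 1162 CPM and from 391 to 1583 CPM. F7 went from no UMI to 66.5 CPM and from 12.95 to 179 CPM. Dock3 went from 13.8 to 108 CPM and from 7.77 to 167 CPM. Of the transcription factors, Pparg, a lipid-sensing nuclear receptor, went from 135 to 407 CPM and from 77.7 to 308 CPM, and Mitf from 919 to 1615 CPM and from 870.5 to 1421 CPM. Genes in the other direction were Lifr, from 213 to 47.6 CPM and from 124 to 20.8 CPM, and Nrg2, which encodes a neuregulin, from 93.98 to 16.5 CPM and from 49.2 to 4.17 CPM. The AHRmKO values of the highest group rest on 5 UMIs of Lifr and 1 of Nrg2. Ahr itself was lowest at the top. Over the groups it stood at 31.3, 38.9, 33.2, 32.7 and 12.2 CPM in AHRfl/fl nuclei, so only the top group was apart. In AHRmKO nuclei it stood at 67.4, 35.03, 23.6, 22.8 and 8.33 CPM. The last value is 2 UMIs, with an interval of 1.01 to 30.1 CPM that overlapped those of all groups but the group of 0. Mmp12 went from 7.52 to 170.3 CPM in the library labelled AHRfl/fl, and its values in the other rest on few nuclei.

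In all, 16 lists of 245 genes outside the rule were then counted by role. Over the Mrc1 set in both libraries, 9 of their 210 counted genes were 2-fold higher and 2 lower, beside 0.793% and 0.525% of all genes. The median log2 ratio of all genes was 0.02 and -0.02. The plot of lists shows the genes of 11 of them.

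**Figure D3:**
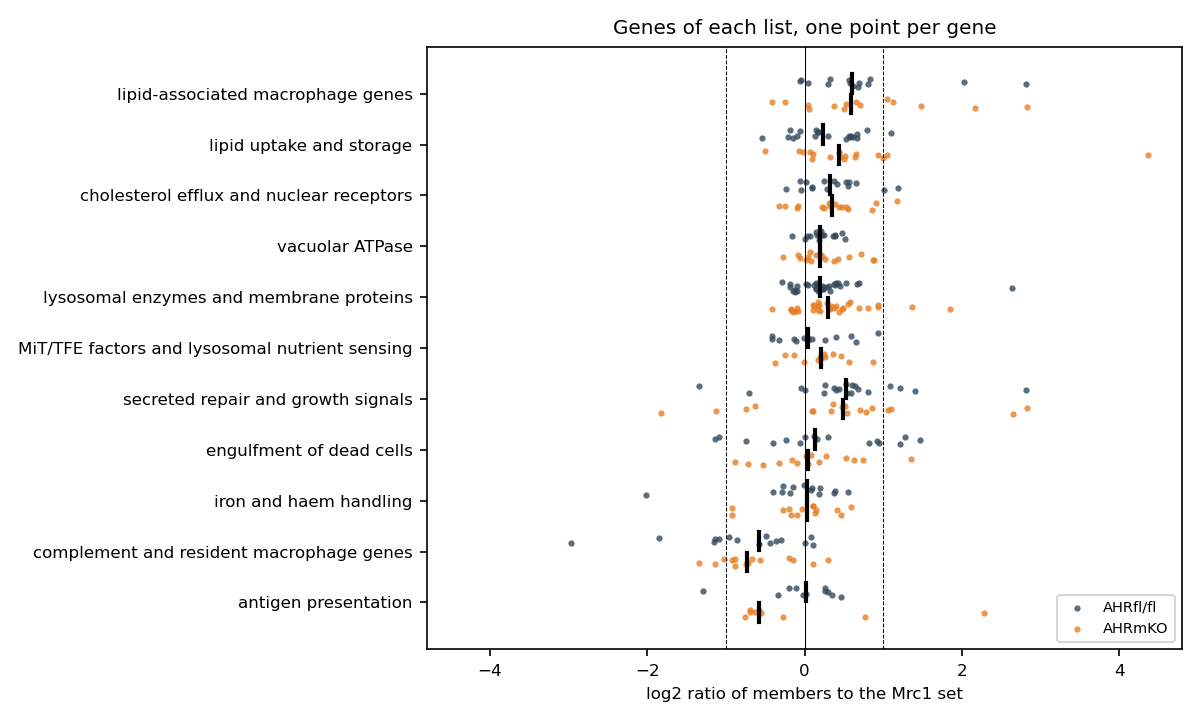
Log2 ratio of members to the Mrc1 set for the genes of 11 lists in each library, 1 point per gene, with a bar at the list's median. The medians of the lipid-associated macrophage list (0.60 and 0.59) lie to the right of 0 and those of the complement and resident list (-0.58 and -0.74) to the left, and most genes of every list lie inside 2-fold. The AHRmKO point of Olr1 at the far right is set against no UMI and depends on the 0.5 CPM added.

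Among 14 counted genes of lipid-associated macrophages, 2 were 2-fold higher in both libraries, Mmp12 and Itgax, and the list's median log2 ratio was 0.60 and 0.59. Itgax, which encodes CD11c, was at 37.5 and 16.001 CPM against 8.84 and 3.17 CPM. In leukocytes low in both gene groups Itgax was at 21.5 and 13.9 CPM, less than 2-fold below the members. Spp1, osteopontin, was at 1883 and 426 CPM against 1077 and 261 CPM, and Fabp5, a fatty acid binding protein, at 197 and 92.1 CPM against 132 and 44.4 CPM. Trem2, the lipid receptor that defines such macrophages in other tissues, was at 151 and 80.01 CPM against 120.0 and 61.8 CPM, a log2 ratio of 0.33 and 0.37. Apoe had a log2 ratio of -0.04 and -0.25. Spp1 and Apoe were also high in the barcodes taken as free RNA, at 4432 and 480.3 CPM and at 8436 and 465 CPM, and the part of free RNA in their levels was not tested.

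Of 18 counted genes of lipid uptake and storage, 1 was 2-fold higher in both libraries, with medians of 0.24 and 0.44. It was Olr1, a receptor for oxidised lipoprotein, at only 7.01 and 9.85 CPM against 3.001 CPM and no UMI (at most 2.38 CPM, from 3 counts), and 24 of its 40 UMIs in AHRmKO members came from a single nucleus. Cd36, the fatty acid and lipoprotein receptor, was at 282 and 807 CPM against 162 and 404 CPM, a log2 ratio of 0.798 and 0.997, with 609 and 518 CPM in endothelial nuclei. Lipa, the lysosomal acid lipase that frees cholesterol and fatty acids, was at 184 and 196 CPM against 115 and 102 CPM. Plin2, a lipid droplet coat protein, was at 273 and 322 CPM against 178 and 205 CPM, and Lpl, lipoprotein lipase, at 176 and 145 CPM against 119 and 102 CPM. These genes were higher in members in each library, by less than 2-fold or close to it.

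Of 16 genes of cholesterol efflux and nuclear receptors, only Pparg was 2-fold higher in both libraries. It was at 264 CPM (256 to 273) and 243 CPM (228 to 259) against 116 and 108 CPM, a log2 ratio of 1.18 (1.07 to 1.31) and 1.17 (0.91 to 1.44). In members without an Alcam UMI it was at 157 and 151 CPM, with log2 ratios of 0.43 and 0.48, so Pparg was less than 2-fold higher in them. They were set apart by a gene of the rule, after the values had been seen. Endothelial nuclei stood at 252 and 327 CPM. Nr1h3, the oxysterol receptor LXRα, was at 48.6 and 89.6 CPM against 23.8 and 49.1 CPM. The pair of transporters that export cholesterol went opposite ways: Abcg1 was at 329 and 422 CPM against 222 and 289 CPM, and Abca1 at 1008 and 1438 CPM against 1191 and 1799 CPM.

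Lysosomal genes differed little in size. None of the 17 vacuolar ATPase genes outside the rule was 2-fold higher, with medians of 0.20 in both libraries and 14 of 17 above 0 in both. How many of all genes lay above 0 in both was not counted, so such counts have no background beside them here. Of 32 lysosomal enzymes and membrane proteins, 1 was 2-fold higher in both libraries, with medians of 0.19 and 0.30 and 21 above 0 in both. It was Mcoln3, a lysosomal cation channel, at 14.01 and 9.85 CPM against 1.83 and 2.38 CPM, with an AHRmKO log2 ratio of 1.85 (0.399 to 4.39). Ctsd, the protease cathepsin D, was at 837 and 294 CPM against 624 and 167 CPM.

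None of the 13 counted genes of MiT/TFE factors and lysosomal nutrient sensing passed 2-fold in both libraries, with medians of 0.04 and 0.21. Fnip2, a folliculin partner in nutrient sensing, came closest at 1177 and 1351 CPM against 617 and 740.4 CPM. Mitf was at 1337 and 1525 CPM against 1115 and 1183 CPM, and Tfeb at 152 and 174 CPM against 100.2 and 118 CPM. Tfec was lower in members, with log2 ratios of -0.41 and -0.38, so not every factor of the family was higher in members.

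Of 8 counted osteoclast and cell fusion genes, 2 were 2-fold higher in both libraries. Ctsk, the bone protease cathepsin K, was at 82.1 and 65.97 CPM against 39.2 and 20.6 CPM, and Mmp9, gelatinase B, at 9.05 and 21.2 CPM against 2.83 and 0.793 CPM. The AHRmKO ratio of Mmp9, 4.07 (2.22 to 10.06), is set against 1 UMI in the Mrc1 set. Much of both genes in AHRmKO members came from 7 nuclei (cluster 6 of the clusters below), which held 74 of 86 Mmp9 UMIs, 123 of 268 Ctsk UMIs, 57 of 142 Acp5 UMIs and all 22 Dcstamp and 21 Calcr UMIs. Without them Mmp9 was at 2.98 CPM, with a log2 ratio of 1.43 in place of 4.07, and Ctsk at 36.1 CPM, with a log2 ratio for Ctsk of 0.79 in place of 1.65. Without them Atp6v0d2 was at 182 CPM and Mmp12 lost no UMI. Leukocytes low in both gene groups had Ctsk at 45.05 and 23.5 CPM and Mmp9 at 3.37 and 2.13 CPM. Over that low group, Ctsk was less than 2-fold higher in AHRfl/fl members, Ocstamp was 2-fold lower there, and the list's medians were -0.12 and 0.05.

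Of 15 genes for engulfment of dead cells, 1 was 2-fold higher in both libraries, Cd300lf, a receptor for phosphatidylserine, at 149 and 148 CPM against 53.3 and 57.9 CPM. Over leukocytes low in both gene groups no gene of this list, Cd300lf included, was 2-fold higher in either library. There 2 were 2-fold lower in AHRmKO members and none in AHRfl/fl members, with medians of -0.07 and -0.05 for AHRfl/fl and AHRmKO. Mertk was level with the Mrc1 set in the library labelled AHRfl/fl and lower in the other, at log2 ratios of 0.00 and -0.16. Its ligand gene Gas6 was lower, at -1.09 and -0.72, as was the scavenger receptor Stab1, at -1.13 and -0.89. Of 18 secreted repair and growth signals, 2 were 2-fold higher in both libraries, Mmp12 and Il1rn, the interleukin 1 receptor antagonist, with medians of 0.53 and 0.49. Il1rn was at 16.5 and 7.63 CPM against 7.502 and 0.793 CPM, and its AHRmKO ratio of 2.65 (0.68 to 8.62), against 1 UMI in the Mrc1 set, became -0.22 when Alcam was left out of the rule.

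Complement and resident macrophage genes were the one list of the 16 with a median below 0 in both libraries, at -0.58 and -0.74. Of 14 counted, 2 were 2-fold lower in both libraries, Cbr2 and Fcgrt, and none higher. Over leukocytes low in both gene groups the medians were -0.06 and -0.05, with no gene of 15 and 1 of 13 2-fold lower, so the Mrc1 set, which was chosen by resident genes, was the high one. Fcgrt, the neonatal Fc receptor, was at 32.4 and 19.4 CPM against 72.5 and 43.6 CPM. Selenop, selenoprotein P, had log2 ratios of -0.85 and -0.88, and Maf, a transcription factor of resident macrophages, -0.96 and -0.92. No gene passed 2-fold in both libraries among 14 of iron and haem handling, 11 monocyte and inflammatory genes, 9 of antigen presentation, 6 of the AHR pathway, 13 early response genes and 8 of the cell cycle. Their medians lay on opposite sides of 0 in the 2 libraries or changed sign under an alternative, so no direction is given.

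Members were clustered within each library into 11 and 6 clusters, which are described by their leading genes and carry no names. Cluster sizes were not compared between libraries. In the library labelled AHRfl/fl, the clusters with the most nuclei were cluster 1 (1063 nuclei), led by Tspan13, Itgal and the kinase gene Fgr at 808 CPM, and cluster 2 (982), led by Dock3 at 122 CPM with Adgb, Tent5c and Olfr111. Cluster 4 (521) was led by Klra2 and by Ifit2, Rsad2 and Cxcl10, which are interferon-induced genes. Cluster 3 (238) was led by Abca9, Clec10a and Plekhg5, genes that were lower in the members as a whole.

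Cluster 9 of that library (259 nuclei) had 4 of the 15 genes with the highest ratios to the Mrc1 set among its 10 leading genes, namely Mmp12, Mamdc2, Chst11 and Dach1. Mmp12 was at 488 CPM, Ctsk at 473 CPM and Chst11, a chondroitin sulfotransferase, at 839 CPM. Atp6v0d2 was at 1019 CPM, Alcam at 3804 CPM, Spp1 at 5647 CPM and Il7r at 616 CPM. Cluster 8 (185) was led by the chemokine genes Ccl7 and Ccl2, with Hmga2 at 664 CPM, Cd36 at 1137 CPM and Pparg at 637 CPM. The Mmp12 and Ctsk signal and the Cd36 and Pparg signal thus peaked in different clusters of that library.

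In the library labelled AHRmKO, cluster 3 (320 nuclei) was led by Trf and Tspan13, with Fgr at 481 CPM and Ahr at 55.5 CPM. Cluster 5 (265) had Cd36 at 1991 CPM, Mmp12 at 173 CPM and Hmga2 at 363 CPM, and cluster 1 (252) had F7 at 153 CPM, Gpnmb at 2424 CPM and Mertk at 1695 CPM. The 8 highest ratios of cluster 1 were those of 4 haemoglobin genes and of the endothelial genes Ldb2, Cyyr1, St6galnac3 and Mecom, and these came from few nuclei. Of its 1233 haemoglobin UMIs 1178 lay in 3 nuclei, and of 361 UMIs of Mecom, Ldb2, Cyyr1, St6galnac3 and Ptprb 341 lay in 2 nuclei, while 247 of the 252 had under 3 UMIs of either group. The 11 nuclei of cluster 4 were led by Ifit2 and Rsad2. The 7 nuclei of cluster 6 had Ctsk at 2946 CPM, Mmp9 at 1772 CPM and Acp5 at 1365 CPM, with no UMI of Adgre1 and Gpnmb at 144 CPM.

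**Figure D4:**
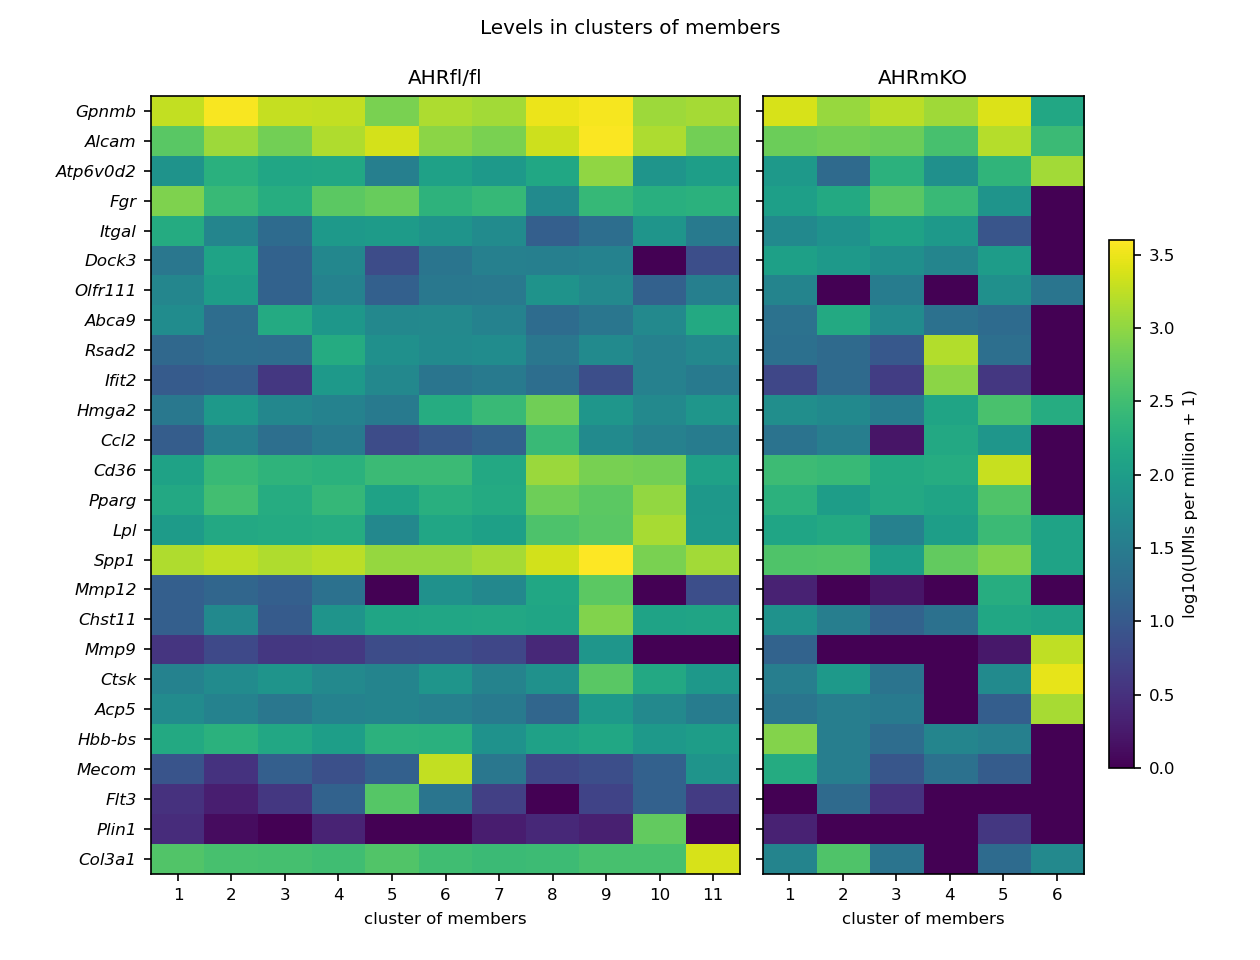
Heat map of log10 of CPM plus 1 for 26 genes (rows) in the 11 clusters of AHRfl/fl members and the 6 clusters of AHRmKO members (columns). Mmp12, Ctsk and Atp6v0d2 are high in AHRfl/fl cluster 9 and Cd36 in AHRfl/fl cluster 8 and AHRmKO cluster 5.

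Some clusters were led by genes of other cells. In the library labelled AHRfl/fl these were Il12b and Flt3 (cluster 5), Mecom and Ptprb (6), Tshr and Plin1 (10) and Nox4 and Slit3 (11). Cluster 7 (149 nuclei), led by genes such as Gm12002, Frmpd1 and Tmem178b, was taken with them. Clusters 7 and 11 had no gene of the lists among their 10 leading genes. Top doublet scores made up 47.7% of cluster 7, 40% of cluster 10 and 31.03% of cluster 11. Over all barcodes within the limits they made up 6.79% in that library and 2.65% in the other. Cluster 2 of the library labelled AHRmKO, led by Osmr and Apod and with 28.6% top doublet scores, was added to them. The clusters taken as other cells held 327 of 3575 and 14 of 869 members, a choice made after their genes had been seen. Cluster 1 of the library labelled AHRmKO was kept in that choice, and the values without it are given separately with the alternatives. Leaving them out raised the genes 2-fold lower than in the Mrc1 set from 166 to 631 in the library labelled AHRfl/fl. Only members were clustered, so the removal was made on 1 side and lowers genes of other cells in members by construction. Over all members, fibre genes summed to 3627 and 1001 CPM, genes of fibroadipogenic progenitors to 714 and 69.9 CPM, of satellite cells to 219 and 38.6 CPM, and of endothelium to 118 and 67.0 CPM. In the barcodes taken as free RNA the same lists summed to 19258 and 10034, 2947 and 543, 1250 and 312, and 75.7 and 103 CPM. Genes of neutrophils summed to 147 and 234 CPM in members, above 44.7 and 51.6 CPM in low barcodes and beside 103 and 198 CPM in the Mrc1 set. Csf3r, the receptor for granulocyte colony-stimulating factor, made up 141 and 233 CPM of the sum in members. None of the 6 neutrophil genes was at 0 in AHRfl/fl members, and S100a9, Retnlg and Cxcr2 were at 0 in AHRmKO members. Genes of dendritic cells summed to 45.8 and 13.8 CPM in members and 80.1 and 64.5 CPM in low barcodes, with Xcr1 and Ccr7 at 0 in AHRmKO members. Those of mast cells summed to 3.70 and 0.246 CPM in members and 8.41 and 4.38 CPM in low barcodes, with Kit, Cpa3 and Cma1 at 0 in AHRmKO members.

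Between the libraries, 260 of 13847 genes in members were 2-fold higher in the one labelled AHRmKO (1.88%) and 3094 lower (22.3%), with a median log2 ratio over all genes of -0.16. In the Mrc1 set 461 of 11996 were higher (3.84%) and 2408 lower (20.1%), a share of the same order. The same libraries supply both comparisons, and genotype, animals and library preparation cannot be told apart. Ratios in the Mrc1 set, and some in barcodes of 200 to under 500 UMIs, are therefore given beside those in members.

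The highest ratios of AHRmKO to AHRfl/fl members were those of Fosb, Fos and Lars2. Fos and Fosb, subunits of AP-1 that are made within minutes of a stimulus, were at 28.2 CPM (25.3 to 31.3) against 315 CPM (298 to 332) and 3.94 CPM (2.92 to 5.19) against 119 CPM (109 to 131). The log2 ratio of Fosb was 4.76 in members and 5.32 in the Mrc1 set, and that of Fos 3.46 and 3.57. In the barcodes taken as free RNA Fos was at 33.6 and 158 CPM and Fosb at 6.45 and 66.1 CPM. Both were thus higher in the library labelled AHRmKO in members, in the Mrc1 set and in low barcodes, with the lowest ratio in low barcodes (2.22 for Fos and 3.26 for Fosb). Of 16 counted early response genes, 5 were 2-fold higher in AHRmKO members (Fos, Fosb, Jund, Atf3 and Dusp1) and 2 lower (Fosl1 and Egr2), with a median log2 ratio of 0.45. In the Mrc1 set 7 of 13 were higher and none lower, with a median of 1.62. The list was drawn up after Fos had been seen in these data.

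Lars2, the leucyl-tRNA synthetase of mitochondria, went from 163 to 586 CPM in members and from 503 to 3780.4 CPM in low barcodes. Rilpl2, Rgl2, Nfkbid, Dusp1 and Neurl2 completed the 8 highest, with Rilpl2 at 66.9 and 211 CPM, a log2 ratio of 1.65 in members and 2.22 in the Mrc1 set. Neurl2 overlaps the lysosomal gene Ctsa on the opposite strand. The lowest included the muscle genes Actc1 (from 273 to 6.65 CPM), Mylpf (from 414 to 12.8 CPM), Cryab and Chrna1, and the membrane genes Cd81 (from 98.1 to 1.97 CPM) and Ifitm3. The log2 ratios of Actc1, Mylpf and Cd81 were -5.26, -4.96 and -5.32 in members, -4.27, -4.18 and -4.496 in the Mrc1 set, and -4.23, -4.28 and -4.34 in low barcodes. When free RNA was subtracted, the ratios of Cryab, Chrna1 and Cdh15 turned from negative to positive.

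The lipid-associated macrophage list had a median log2 ratio between the libraries of -1.002 in members and -1.15 in the Mrc1 set. Of its genes, Spp1 was at 1883 and 426 CPM in members, a log2 ratio of -2.14, against -2.04 in the Mrc1 set. Apoe was at 3598 and 487 CPM, -2.88 against -2.68. In the barcodes taken as free RNA, Spp1 and Apoe were lower in the library labelled AHRmKO too, by more than in members. The part of free RNA in these ratios was not tested. From the lipid-associated list and others, C1qa, Cd74, Cd63 and Ctsd were also lower, at -3.32, -3.25, -3.23 and -1.51, against -2.79, -2.64, -2.78 and -1.897 in the Mrc1 set. Pparg, Lipa, Gpnmb and Atp6v0d2 were near level, at -0.12, 0.10, -0.17 and 0.01, with Gpnmb and Atp6v0d2 held by the rule. In the Mrc1 set Pparg and Lipa were at -0.11 and -0.17. Mmp12 had a ratio of 0.01 that rests on 1 AHRmKO nucleus, without which the level was 37.9 CPM against 59.3 CPM in AHRfl/fl members, so no direction is given for it. Cd36 was higher, at 282 and 807 CPM, a log2 ratio of 1.52 against 1.32 in the Mrc1 set. Of the AHRmKO Cd36 UMIs 84.0% came from cluster 5, and the other AHRmKO members stood at 196 CPM, below the AHRfl/fl mean. That mean still held cluster 8 of the library labelled AHRfl/fl, where Cd36 was also high, so these groups are unlike. Tcirg1, a proton pump subunit, was at 277 and 729 CPM, 1.396 against 1.705. Adra1a, an adrenergic receptor, was at 97.3 and 237 CPM, 1.28 against 1.33.

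**Figure D5:**
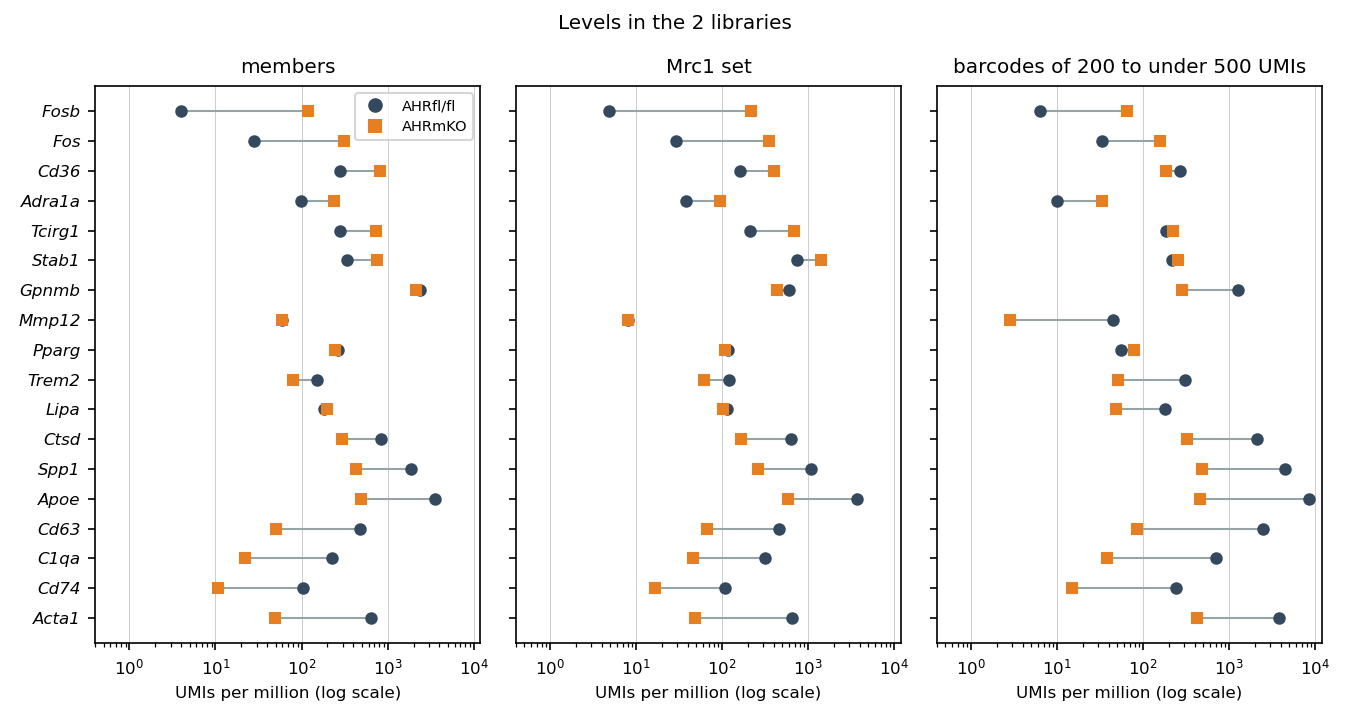
Level in CPM on a log axis of 18 genes in both libraries, for members, the Mrc1 set and barcodes of 200 to under 500 UMIs. Fosb and Fos are higher and Apoe, Spp1, C1qa and Cd74 lower in the library labelled AHRmKO in members and the Mrc1 set alike. Pparg and Lipa stay close there. In the low barcodes Fosb and Fos are also higher and Apoe and Spp1 also lower. The AHRmKO level of Mmp12 in members rests on 12 nuclei, and 1 of them holds 88 of its 242 UMIs.

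Counted over the lists, 13 of 231 genes were 2-fold higher in AHRmKO members and 51 lower, beside 1.88% and 22.3% of all genes, and the count of lower genes is at that background share. Of lipid-associated macrophage genes none of 14 was higher and 7 were lower, of antigen presentation 0 and 6 of 11, of complement and resident genes 1 and 6 of 15, of lysosomal genes 0 and 6 of 32, and of monocyte genes 1 and 7 of 14. In the Mrc1 set 0 and 7 of 14 lipid-associated genes, 0 and 7 of 11 of antigen presentation and 0 and 6 of 15 complement and resident genes were higher and lower. For lysosomal genes these counts were 0 and 8 of 31, and for monocyte genes 2 and 6 of 13. Of osteoclast and cell fusion genes, 3 of 13 were higher in AHRmKO members (Dcstamp, Mmp9 and Calcr) and 0 lower. These 3 rest on the 7 nuclei of AHRmKO cluster 6, which held all Dcstamp and Calcr UMIs and 74 of 86 Mmp9 UMIs. Without those nuclei the ratio of Mmp9 between libraries was negative, and the list's median was -0.15 in place of 0.33. In the Mrc1 set none of 7 was 2-fold apart.

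Ahr, the ligand-activated transcription factor floxed in both groups, was at 28.6 CPM (25.8 to 31.7) in AHRfl/fl members and 30.8 CPM (25.6 to 36.7) in AHRmKO members, and the intervals overlapped. Arnt, its dimer partner, was at 181 and 170.1 CPM. Of its targets, Tiparp was at 80.8 and 86.2 CPM, Ahrr at 4.33 and 6.89 CPM and Cyp1b1 at 5.04 and 0.246 CPM. The AHRmKO value of Cyp1b1 is a single UMI. Cyp1a1 had no UMI in either library, which allows at most 0.236 and 0.739 CPM. In the Mrc1 set Ahr was at 35.5 and 68.96 CPM, Tiparp at 92.03 and 89.6 CPM and Ahrr at 6.84 and 5.55 CPM. Cyp1b1 was lower in AHRmKO nuclei there too, at 5.67 and 1.59 CPM from 34 and 2 UMIs. Vegfa, an angiogenic factor, was at 8.34 and 7.39 CPM in members and at 6.34 and 16.6 CPM in the Mrc1 set, the latter from 38 and 21 UMIs.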

How the data were processed

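Single-nucleus RNA was captured with the Chromium Next GEM 3′ HT chemistry, version 3.1, in 1 library per genotype. The files the authors deposited hold raw UMI counts, not normalised, for each gene in every barcode. Per the submitters' processing notes Cell Ranger 7.0.1 and build mm10 were used, while the matrix headers name the format of version 4. The annotation, the counting of introns and the use of strand are not given in the sources used here. The matrices held 151788328 and 113737134 UMIs over 32285 genes, of which 32158 were matched to GENCODE M21.

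Nuclei were selected by the rule given in the report. Counts were summed per library and set, scaled to CPM with exact Poisson 95% intervals, and compared as log2 ratios with 0.5 CPM added and exact conditional binomial intervals. The added value makes the ratios of low genes too small. Intervals treat the UMIs of 1 nucleus as independent and cover counting error only, so they understate the spread between nuclei. Shares have Clopper-Pearson intervals. The authors' counts were thinned to 2000 UMIs per nucleus for shares of nuclei. No test was made, with 1 library per group. Doublets were scored with Scrublet in scanpy and kept, because its own threshold called 2303 AHRfl/fl and 3 AHRmKO nuclei. As an alternative the highest scores were left out, a share that grew by 0.4% with each 1000 barcodes within the limits. It came to 6.79% in AHRfl/fl and 2.65% in AHRmKO. Free RNA was estimated from barcodes of 200 to under 500 UMIs, its share set by fibre genes. Endothelial nuclei had at least 4 UMIs of Pecam1, Cdh5, Ptprb, Flt1 and Emcn and at most 1 of the leukocyte genes. Members were clustered within each library (2000 variable genes, 20 components, 15 neighbours, Leiden resolution 0.5).

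The genes named were the rule genes, a fixed group of 15, the extremes of each list, the 15 highest and 10 lowest ratios of members to the Mrc1 set at 20 CPM or more, ranked on the ratio nearer 0 of both libraries, the 8 highest and 8 lowest between libraries at 50 CPM or more, the leading genes of clusters, and the 5 genes most separated in share of nuclei. Values of some genes that meet this rule are not reported here. The members and lists were chosen with earlier results of these data known. The macrophage check genes, the clusters taken as other cells, AHRmKO clusters 1 and 6, the division by Alcam UMI, the TGACTCA motif and the spread over single nuclei were chosen after the values had been seen. On Poisson counts simulated for the summed sets, with no spread between nuclei or libraries, 99% to 100% of genes changed 4-fold passed 2-fold. Of unchanged genes, 0.178% did so between members and the Mrc1 set of the library labelled AHRfl/fl (14225 genes simulated), 1.16% in the other (10094) and 0.417% between libraries (13854). These shares are not error rates of the real counts, because the spread between nuclei and libraries was left out. Python 3.11.15, scikit-image 0.26.0, scikit-learn 1.9.0, igraph 0.11.9, anndata 0.12.19, scanpy 1.11.5, numpy 2.4.6, scipy 1.17.1, pandas 2.3.3 and matplotlib 3.10.9 were used, with edgeR 4.0.16 in R 4.3.3 for the TMM factors of 1 alternative.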

Additional observations from a re-analysis of the deposited data

Results flagged for a closer look

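The difference between sets or libraries pointed in opposite directions for 11 genes of the lists, with a counting interval that excluded 0 on each side. That criterion was chosen after the data had been seen. It was applied to the genes of the lists and the other named genes, in both comparisons. No such count was made over all genes, so the 11 are not a result about the lists. Whether the opposite directions differ beyond the spread between libraries was not tested, and no cause was tested. In the ratio of members to the Mrc1 set, Cd40, a costimulatory receptor, had log2 values of -0.34 in AHRfl/fl nuclei and 2.28 in AHRmKO nuclei. Cxcl2, a neutrophil chemokine, stood at 0.72 and -0.86. Nr4a1, an early response nuclear receptor, stood at 0.43 and -0.84, and the matrix metalloproteinase gene Mmp19 at 0.25 and -0.62. Ppargc1b, a coactivator of oxidative metabolism, stood at -0.26 and 0.54, and Lamp2, a lysosomal membrane protein, at -0.18 and 0.32.

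In the ratio of the library labelled AHRmKO to the other, the proton pump subunits Atp6v1h and Atp6v1b2 stood at 0.11 and 0.104 in members and at -0.26 and -0.28 in the Mrc1 set. Pdgfc, a growth factor for fibroblasts, stood at 0.22 and -0.38. Pros1, which bridges dead cells to the receptor Mertk, stood at 0.41 and -0.42, and Cd80, a costimulatory ligand, at -0.299 and 0.41.

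Cycling leukocytes were outside the set. Of them, 575 of 946 AHRfl/fl nuclei (60.8%, 57.6 to 63.9) and 339 of 560 AHRmKO nuclei (60.5%, 56.4 to 64.6) met its condition on Gpnmb, Atp6v0d2 and Alcam. Among non-cycling leukocytes 3575 of 6060 and 869 of 1487 met it, a share of the same order. Cycling leukocytes as a whole were deeper than members, with median UMIs of 4246 and 4536, and the part of depth in these shares was not tested.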

How the results depend on the processing

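Of 25 genes named for their ratio to the Mrc1 set, none changed direction over 18 alternatives (15 planned and 3 chosen after seeing the data), of which the 2 on the UMI minimum cannot change a gene's ratio. In members without an Alcam UMI, however, Mmp12, Dach1 and Mamdc2 were below the Mrc1 set in 1 library each. All 10 lower genes and 12 of 15 higher genes stayed past 2-fold, the exceptions being Chst11 (0.83) and Olfr111 (0.82) without Alcam in the rule and Adra1a (0.90) with a mitochondrial limit of 2%. Shares are given as members in percent of nuclei and of leukocyte nuclei. A rule sum of 5 or more gave 17.3% and 41.9% for AHRfl/fl and 10.6% and 34.4% for AHRmKO. Without Alcam the shares were 17.3%, 42.05%, 10.7% and 34.6%, 49 genes were higher in both libraries, and the AHRmKO ratio of Il1rn was -0.22. Thinning to 2000 UMIs gave 19.7%, 46.75%, 11.3% and 38.1%, with 4 list genes higher. Of nuclei, 8 leukocyte UMIs gave 19.65% and 11.5%, and 3000 UMIs 15.03% and 12.3%, with 35 genes and 0 list genes lower in both libraries. For AHRfl/fl alone, the mitochondrial limit of 2% gave 21.8%, a fibre limit of 0.3% 17.5% and leaving out top doublet scores 21.98%.

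With 5 CPM added, higher and lower counts over the Mrc1 set were 87 and 81 (AHRfl/fl), 105 and 79 (AHRmKO) and 38 and 31 (both), those between libraries 114 and 1520, and list genes 5 and 0 over the Mrc1 set and 8 higher between libraries. With free RNA subtracted they were 634 and 499, 498 and 410, 125 higher in both, 532 higher between libraries, and 14 and 4 list genes. The ratios between libraries then turned positive for Cdh15 (0.77), Chrna1 (0.16) and Cryab (0.46). With no UMI minimum the counts were 518 and 346, 1467 and 1712, 169 and 107, and 455 higher between libraries. With at least 100 UMIs they were 170 higher, 100 and 56, 49 and 28, 1990 lower between libraries, and 4 and 1 list genes. With equal weight per nucleus 414 genes were higher between libraries and 4 list genes lower over the Mrc1 set. A minimum changes how many genes are counted, and the cause of the other changes was not tested.

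Without the clusters taken as other cells, AHRfl/fl shares were 19.1% and 46.4%, 631 genes were lower than in the Mrc1 set (which was not cleaned in the same way), and the ratios between libraries of Ebf1 (0.52) and Ptprb (1.08) turned positive. Without AHRmKO cluster 6 that of Mmp9 was -1.45. Without AHRmKO cluster 1, AHRmKO shares were 9.31% and 30.1%, 69 genes were higher and 43 lower in both libraries, and no count moved by more than 1.5 times. In all, 41 of 216 counts over genes moved by more than 1.5 times and 23 of 40 shares by more than their interval. Of 860 list medians 40 changed sign, the largest being the monocyte list in AHRmKO (-0.45, and 0.32 with a mitochondrial limit of 2%). None is counted as reversed, because after that output was seen a median was taken as called only where its interval over the list's genes excluded 0. No paired analysis was possible because each group has 1 library. The AHRmKO values rest on fewer nuclei, 869 members and 299 of the Mrc1 set.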
